A study of Homo sapiens with 4 samples.

Results

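The regions described here are the strong CTCF peaks that lie between genes in the melanoma cell line MDA-MB-435, as the labels call it. The regions were chosen by a measured value, the peak caller's score, and by position: a region was included when it lay on an autosome, its peak score was 103 or more, and its centre fell outside every protein-coding gene and 5 to 100 kb from the nearest protein-coding gene end. There were 1154 such regions among 42462 called peaks, 41313 of them on autosomes. Across all autosomal peaks 10.4% reached that score, and the intergenic regions were 26.95% of those 4282 strong peaks.

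The cells were growing without synchronisation in DMEM with serum and antibiotics, and chromatin was precipitated with a rabbit antibody against total CTCF. No transgene, drug or genotype change is given in the labels for them. The study had 4 samples in 2 groups, the other group being mitotic cells, and 1 peak list, that of asynchronous replicate 1, was analysed here. No value therefore has a replicate check, no test was made, and all intervals (95%) cover counting error only. Depth was 19210460 tags, and no control library is named in the peak list, so DNA copy number and repeats were not separated from binding.

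CTCF is a DNA-binding protein with a row of zinc fingers that reads a long, GC-rich motif. Cohesin, the ring complex that extrudes chromatin loops, tends to halt at CTCF sites whose motifs face each other, and such sites often mark the edges of chromatin domains. Between genes, a CTCF site can act as an insulator that keeps an enhancer on its far side from reaching a promoter.

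Sequence could be read for 47 of the 1154 regions (4.07%), those whose central 101 bases lay inside a RefSeq gene-start window (GRCh38.p14, 250 bases before to 50 after a start), and all 47 sat at starts of long noncoding RNA (lncRNA) genes. The motif searched, CNNNAGNGGGCG on either strand, was learned from other peaks: of all gapped words of 12 bases with 8 fixed letters, it had the largest excess in 403 strong peaks at protein-coding gene ends over all gene starts. It matches the central part of the known CTCF motif. The 8 regions of highest score that held it, and those at SCIRT and SNHG26, are shown because they carry the motif, in most of them close to the peak centre and in LOC124903549 far from it. Capitals mark the match, and each sequence is written 5′ to 3′ on the strand that holds it.
LOC124903549, chr15:89358765-89358865, plus strand: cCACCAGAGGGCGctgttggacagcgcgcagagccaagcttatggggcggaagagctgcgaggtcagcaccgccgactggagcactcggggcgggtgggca
LOC124903958, chr17:27353898-27353998, plus strand: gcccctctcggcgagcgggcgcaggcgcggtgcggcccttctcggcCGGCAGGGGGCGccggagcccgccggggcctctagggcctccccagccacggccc
LOC101928447, chr17:76121531-76121631, plus strand: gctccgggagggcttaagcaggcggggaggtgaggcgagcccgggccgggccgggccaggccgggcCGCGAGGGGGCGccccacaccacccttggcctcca
LOC105370680, chr14:102524606-102524706, plus strand: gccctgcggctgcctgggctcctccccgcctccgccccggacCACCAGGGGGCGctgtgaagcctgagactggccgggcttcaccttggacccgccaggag
LOC105372694, chr20:58179670-58179770, minus strand: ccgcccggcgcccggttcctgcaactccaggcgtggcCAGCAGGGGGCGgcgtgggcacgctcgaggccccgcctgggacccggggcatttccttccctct
LOC124903699, chr16:66873270-66873370, minus strand: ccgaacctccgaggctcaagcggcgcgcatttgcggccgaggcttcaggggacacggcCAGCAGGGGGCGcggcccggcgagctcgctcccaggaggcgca
LOC124902986, chr12:94101511-94101611, minus strand: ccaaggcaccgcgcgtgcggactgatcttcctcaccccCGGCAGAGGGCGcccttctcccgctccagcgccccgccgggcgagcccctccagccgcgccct
LOC124901768, chr7:148966904-148967004, minus strand: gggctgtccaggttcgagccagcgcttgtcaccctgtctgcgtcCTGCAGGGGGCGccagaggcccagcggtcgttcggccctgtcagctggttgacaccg
SCIRT, chr6:44074667-44074767, minus strand: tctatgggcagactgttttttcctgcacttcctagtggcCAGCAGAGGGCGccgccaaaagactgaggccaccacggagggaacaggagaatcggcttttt
SNHG26, chr7:22854077-22854177, plus strand: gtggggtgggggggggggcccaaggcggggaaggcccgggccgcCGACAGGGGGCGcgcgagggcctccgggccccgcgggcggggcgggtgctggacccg

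The 3 readable regions of highest score without these letters are shown for contrast, on the plus strand.
LOC105370399, chr14:22557255-22557355, plus strand: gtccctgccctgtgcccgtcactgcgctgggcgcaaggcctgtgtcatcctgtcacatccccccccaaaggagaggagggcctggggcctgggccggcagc
C1orf220, chr1:178542639-178542739, plus strand: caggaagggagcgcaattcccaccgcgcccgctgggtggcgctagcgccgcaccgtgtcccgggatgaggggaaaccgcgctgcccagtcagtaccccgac
LINC02874, chr12:52213603-52213703, plus strand: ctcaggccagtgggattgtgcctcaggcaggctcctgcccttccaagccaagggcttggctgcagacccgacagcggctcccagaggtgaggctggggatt

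The motif was found in 14 of the 47 readable regions, or 29.8% (Clopper-Pearson interval 17.3 to 44.9), and in 2.19% of all 33551 autosomal gene-start windows over the same length. Among weaker peaks at the same distance from genes it was present in 5 of 46 (10.9%, 3.62 to 23.6), an interval that overlaps that of the regions. Strong peaks inside genes had it in 19 of 64 (29.7%, 18.9 to 42.4). Among the strong peaks at gene ends, which chose the letters, it was present in 36.5%. With 1 fixed letter fewer, CNNNAGNNGGCG, the motif was in 27 of 47 regions (57.4%, 42.2 to 71.7) and in 10 of 46 weaker peaks (21.7%, 10.9 to 36.4), and these intervals do not overlap. Strong peaks inside genes had this looser motif in 43.75% (31.4 to 56.7) and those at gene ends in 49.4% (44.4 to 54.4). Both intervals overlap that of the regions. Over the 10 words of largest excess the share was 25.5% to 42.6% in the regions and 2.17% to 10.9% in the weaker peaks. These words, the length and the stretch searched were chosen after sequences and motif counts of these regions had been seen. GC content moved with the share: the median was 71.3% in the strong intergenic stretches and 57.4% in the weaker ones, and its part in the result was not tested.

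The centre of the match lay within 20 bases of the peak centre in 12 of the 14 regions, with a median offset of 7.5 bases and a largest of 43, at LOC124903549. No region had more than 1 match. The motif faced the same way as the lncRNA gene in 8 regions and the other way in 6. At its free positions, counted from its 5′ end, C stood at position 4 in 13 of 14 regions, and G or A at position 7 in 10 and 4. The word CAGCAGGGGGCG occurred in 3 regions, among them LOC105372694 and LOC124903699. Regions with the motif had a median of 76.8 normalised tags and those without 70.5. A region without these letters can hold another form of the motif, and the rest of the 1154 regions had no sequence to read.

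**Figure D1:**
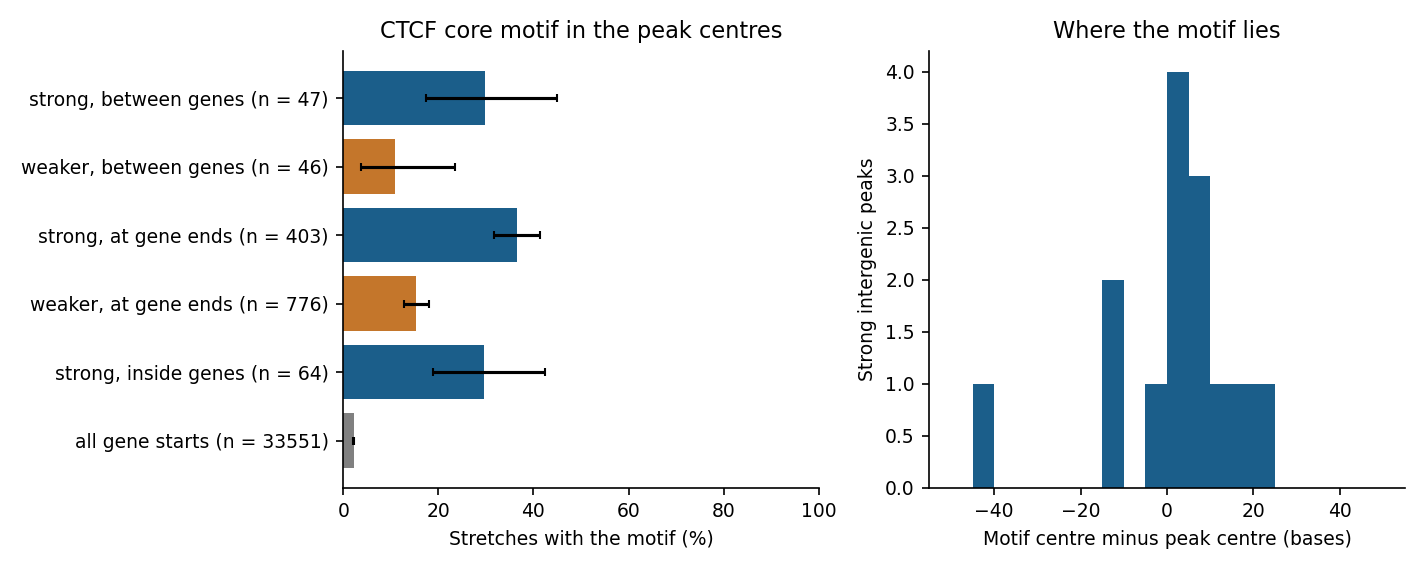
Left, share of 101-base peak centres holding the learned CTCF motif (percent, bars) by class of peak, with Clopper-Pearson intervals and the number searched; right, number of strong intergenic peaks by distance from the motif centre to the peak centre in bases. The strong peaks between genes reach 29.8%, the weaker ones 10.9%, with overlapping intervals, and 12 of 14 motif centres sit within 20 bases of the peak centre.

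By construction these peaks were strong, and their values are given only as a description. Tags are normalised, that is scaled to a library of 10000000. The regions held 53.4 to 286.0 normalised tags with a median of 68.7 and quartiles of 60.4 and 82.5. A median region rested on 132 counted tags, and 149 regions (12.9%) exceeded 100 normalised tags. The tag density over the surrounding 10 kb, as the peak caller gave it, rose 4.33-fold to 158.38-fold with a median of 35.14. The focus ratio, the caller's measure of how tightly tags flank the centre, had a median of 0.904 and was under 0.8 in 33 regions. At the score threshold, 22 regions scored exactly 103 and 16 weaker peaks in the same distance range scored 102.5. The 3 named just inside were those of fewest tags among the 22, with 53.4, 53.6 and 53.9. The 3 just outside were those of most tags among the 16, with 56.0, 56.2 and 56.7. Picked in this way, they cannot show how score and tags are related at the threshold. The distances ran from 5017 to 98242 bp, and the nearest strong peaks beyond either limit lay at 4989 and 101951 bp.

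The strongest region, at chr1:225474944-225475292 (hg38), held 286.0 normalised tags (Poisson interval 262 to 311) between LBR, the lamin B receptor of the inner nuclear membrane, and ENAH, an actin regulator. It lay at the lncRNA gene LOC124904526 (inside it or within 1 kb of an end, as for each noncoding gene named below), 11.7 kb from ENAH and 46.3 kb from LBR. The next, at chr17:41662673-41663021, held 263.4 tags (241 to 287) between KRT17, an epithelial keratin, and EIF1, which helps the ribosome select the start codon. Its interval overlaps that of the LBR region, so the order of these peaks is not resolved by counting.

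The next regions are given with the known roles of the genes beside them, and no theme among the top 20 was tested. A region at chr18:47749121-47749469 held 213.7 tags (194 to 236) between SKOR2, a transcriptional co-repressor, and SMAD2, a signal carrier of the TGF-beta pathway, 59.7 kb from SMAD2. The region between SYT6 and TRIM33, a ubiquitin ligase, held 197.8 tags (178 to 219) and stood 46.1 kb from TRIM33. The region between ID1, an inhibitor of basic helix-loop-helix factors, and COX4I2, a respiratory chain subunit, held 197.3 tags (178 to 218). A region between TMEM235 and SOCS3, a suppressor of cytokine signalling, held 182.5 tags (164 to 203) and lay at the lncRNA gene LOC105371910. Near NGFR, the low-affinity neurotrophin receptor, a region with 161.4 tags (144 to 180) lay at NGFR-AS1 and 5.68 kb from NXPH3. The intervals of the SMAD2, TRIM33, ID1 and SOCS3 regions overlap one another, so their order is not resolved at this depth, while the NGFR interval lies below that of SMAD2.

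The region between KCNK18, a potassium channel, and SLC18A2, the vesicular monoamine transporter, held 196.2 tags (177 to 217). The region between GCM1, a placental transcription factor, and ELOVL5, a fatty acid elongase, held 180.4 (162 to 201). That between BARX2, a homeobox factor, and TMEM45B held 173.1 (155 to 193). It had the highest score beside a gene on the list of developmental transcription factors used below, which does not hold GCM1. A region between HSPB1, a small heat shock protein, and YWHAG, a 14-3-3 protein, held 166.6 tags (149 to 186) in a gap of only 22.5 kb.
The remaining pairs were LOC124905352 and TNK2 (221.8 tags), NBPF1 and LOC124903857 (211.6), CIMIP1 and ANKRD60 (211.1), RBFOX2 and APOL3 (195.7), ANKRD18B and PRSS3 (194.9), HS3ST6 and MSRB1 (177.0), SYCE1L and ADAMTS18 (174.9), TEX35 and RALGPS2 (161.1) and OR4E1 and DAD1 (150.2). The gap from OR4E1 to DAD1 is 891 kb long and holds 125 T cell receptor gene segments, which the rule does not count as protein-coding genes. Its region lay 7.60 kb from DAD1, a subunit of the oligosaccharide transferase.

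**Figure D2:**
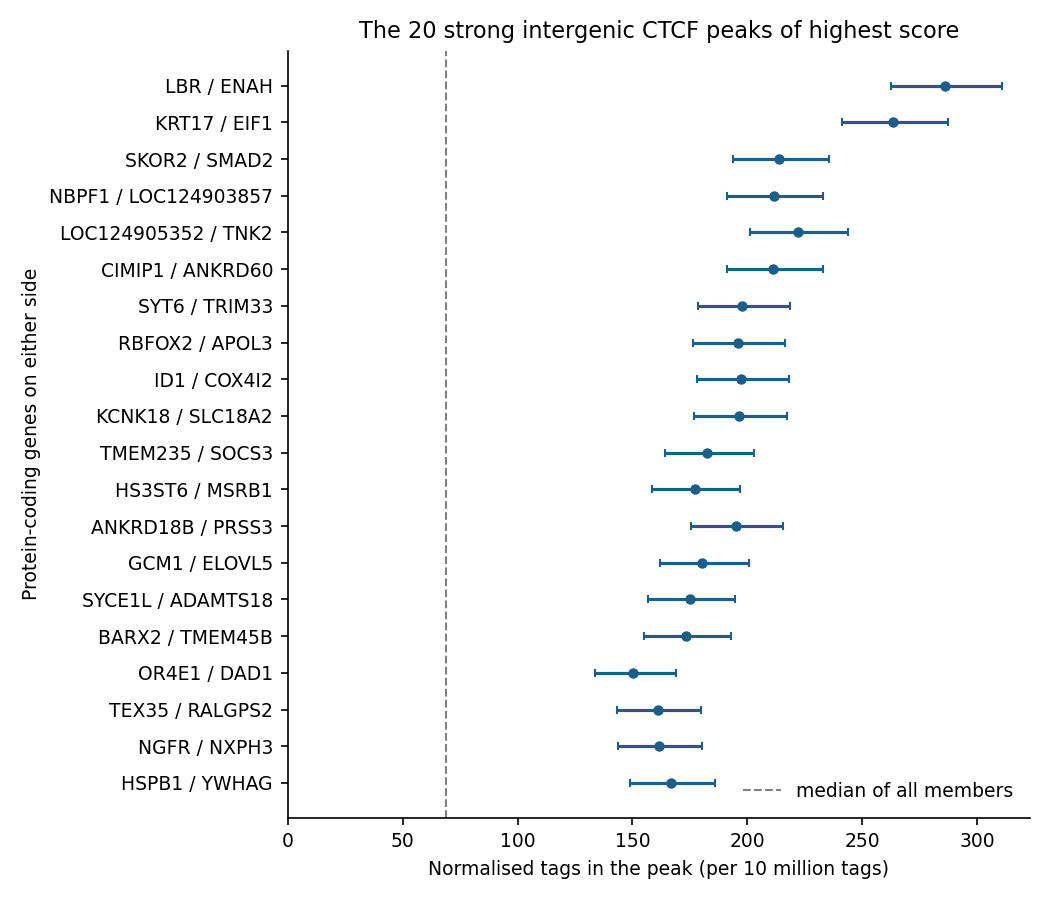
Normalised tags (scaled to 10000000) in the 20 strong intergenic peaks of highest score, ordered by score, with the protein-coding genes on either side; bars are Poisson intervals and the dashed line the median of all 1154 regions. The peaks between LBR and ENAH and between KRT17 and EIF1 hold 286.0 and 263.4 tags, and most others between 150.2 and 221.8 overlap their neighbours' intervals.

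Local background, the normalised tags divided by the fold over the surrounding 10 kb, had a median of 2.04 in these regions and 1.39 in weaker peaks at the same distances. It was over 3 times the autosomal median in 103 regions (8.93%). The highest background was 16.2, at a region of 70.3 tags between KRT17 and EIF1, which also had the lowest fold, 4.33. The lowest focus ratio, 0.668, belonged to a region of 140.0 tags between TREH, the trehalase gene, and LOC124902766. Since a strong peak adds tags to its own surroundings, background and strength are not independent measures.

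Strong intergenic peaks were rarely alone. Another called peak lay within 20 kb of 802 of the 1154 regions, or 69.5% (66.8 to 72.1), where 55.5% of all autosomal peaks had such a neighbour. Weaker peaks at the same distances from genes had one in 59.1% (58.1 to 60.1), an interval below that of the regions. Strong peaks inside genes had one in 71.1% (68.7 to 73.4), which overlaps it, and strong peaks over 100 kb from genes in 55.6% (46.1 to 64.7). The median distance to the next peak was 11.1 kb for the regions and 15.3 kb for the weaker peaks. No called peak lay within 100 kb of 4 regions (0.347%, 0.0945 to 0.885), against 2.97% of the weaker peaks, 0.768% of strong peaks inside genes (0.384 to 1.37) and 5.61% of all autosomal peaks. These 4, named after their values were seen, lay between RIMS1 and KCNQ5, SBSPON and C8orf89, SAP130 and UGGT1, and CYP1B1 and ATL2.

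Strong neighbours were less frequent and did not set the regions apart. Another strong peak lay within 20 kb of 263 regions, or 22.8% (20.4 to 25.3), and the share over all strong autosomal peaks was 23.0%. For strong peaks inside genes it was 23.5% (21.3 to 25.8) and at gene ends 21.8% (19.4 to 24.3). The median distance from a region to the next strong peak was 76.1 kb.

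Many regions lay at noncoding genes, which the rule had not used. Of the 1154 regions, 410 (35.5%, 32.8 to 38.4) lay inside or within 1 kb of an end of a noncoding gene, where the share over all autosomal peaks, most of them inside or near protein-coding genes, was 21.8%. The matched share for weaker peaks was 30.1% (29.2 to 31.0). Strong peaks over 100 kb from genes had 35.0% (26.5 to 44.4), so the regions did not stand apart from them. The difference from the weaker peaks was wider at lncRNA gene ends: 149 regions (12.9%, 11.0 to 15.0) lay within 1 kb of one, against 5.80% (5.35 to 6.28) of the weaker peaks, and 14.7% (12.7 to 16.9) of the strong peaks at protein-coding gene ends. For strong peaks over 100 kb from genes it was 8.55% (4.17 to 15.2), which overlaps the regions' interval. Inside lncRNA genes the shares were closer, 25.1% (22.7 to 27.7) of the regions and 22.1% (21.2 to 22.9) of the weaker peaks. Pseudogenes held 36 regions (3.12%, 2.19 to 4.29), against 3.55% of the weaker peaks and 1.56% of all autosomal peaks. A tRNA gene lay within 1 kb of 8 regions (0.693%, 0.300 to 1.36), against 0.395% of weaker and 0.228% of all peaks. Receptor segments lay within 1 kb of 2 regions (0.173%, against 0.304% and 0.276%) and a miRNA gene of 1 (0.0867%, against 0.142% and 0.317%). Distance to the nearest protein-coding gene differed between the regions and the weaker peaks, and its part in these shares was not tested.

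The 10 highest-scoring regions inside noncoding genes, or within 1 kb of their ends, included several at the loci named above. A region of 221.8 tags (201 to 244) lay at LINC01983 near TNK2, a tyrosine kinase. A region of 211.6 tags (191 to 233) lay at the pseudogene CROCCP2 near NBPF1, with a local background of 9.22. Regions at C1orf220 and LOC105370399, shown above without the motif, held 161.1 and 150.2 tags with low focus ratios of 0.734 and 0.772. A region of 158.2 tags (141 to 177) lay at LOC401021 between HOXD8 and HOXD4, homeobox genes that pattern the body axis, and a region of 159.8 (142 to 179) at LOC124903549, shown above with the motif far from its centre, between POLG and RHCG. A region of 156.9 tags (139 to 175) lay within 1 kb of the threonine tRNA gene TRT-TGT2-1 between DUSP10 and HHIPL2. Its local background was 1.83, below the median of the regions.

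Per length of DNA, strong intergenic peaks were most frequent close to genes. Their rate was 3.26 per Mb of intergenic DNA (2.90 to 3.66) at 5 to 10 kb from a gene end and 0.660 (0.513 to 0.835) at 70 to 100 kb. Weaker peaks also thinned out, from 20.4 to 11.0 per Mb, and the share of peaks that were strong went from 13.8% to 5.64%. The median distance was 19.0 kb to the nearer gene and 63.3 kb to the farther one, and for weaker peaks 24.8 and 92.6 kb. Relative to gap length, with 0 at a gene and 0.5 in mid-gap, the median position was 0.251 for the regions and 0.228 for the weaker peaks, so the regions were not nearer to genes in that measure. Both flanking genes lay within 100 kb of 67.9% of the regions (65.1 to 70.6) and of 52.7% of the weaker peaks (51.7 to 53.7). Where the strand of the nearer gene was known, its nearer end was the start for 441 of 882 regions, 50.0% (46.6 to 53.4), and for 54.3% of weaker peaks (53.1 to 55.4).

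Short gaps were the densest in strong peaks. Of 10102 gaps long enough to hold a region, 979 held at least 1, which is 9.69%. Per Mb of the part of the gap that could hold one, the rate was 4.46 (3.29 to 5.91) in gaps of 10 to 20 kb, 2.81 (2.51 to 3.12) in gaps of 50 to 100 kb and 0.649 (0.515 to 0.807) in gaps over 500 kb. The weaker peaks went from 24.2 to 10.4 per Mb over the same lengths. The share of peaks that were strong was 15.5% (11.7 to 20.1) in the shortest gaps and 5.89% (4.71 to 7.27) in the longest. Gap length and distance to a gene are tied, since a short gap has no distant positions, and their parts cannot be told apart here.

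**Figure D3:**
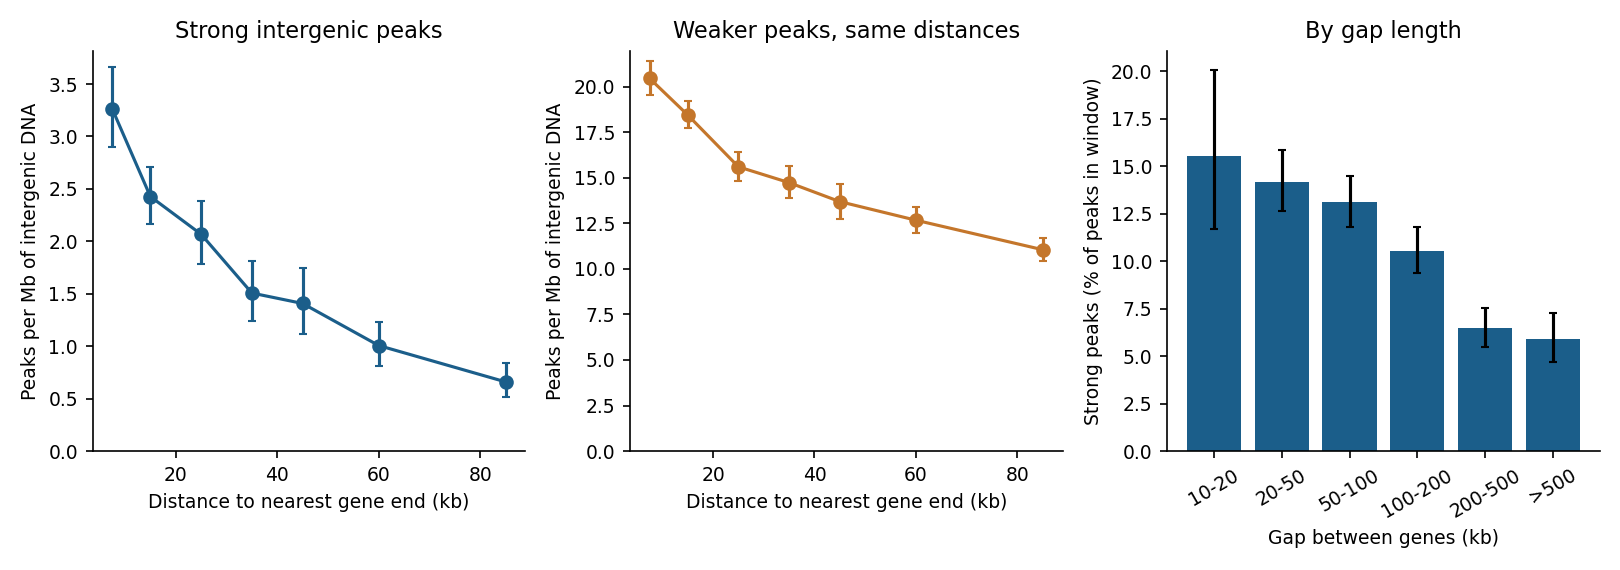
Left and centre, strong and weaker intergenic peaks per Mb of DNA by distance to the nearest protein-coding gene end in kb, with Poisson intervals; right, strong peaks as a percent of peaks in the distance window by length of the gap, with Clopper-Pearson intervals. Strong peaks go from 3.26 to 0.660 per Mb, weaker ones from 20.4 to 11.0.

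The direction of the flanking genes was known for 6628 gaps and 705 regions. A region was present in 10.5% (9.07 to 12.1) of gaps between divergent genes, 8.90% (8.01 to 9.86) between genes in tandem and 7.75% (6.34 to 9.37) between convergent genes. Divergent gaps were also longer, with a median of 56.7 kb against 42.9 kb for convergent ones. Per Mb the rates were 1.68 (1.45 to 1.93), 1.74 (1.57 to 1.92) and 1.42 (1.18 to 1.71), and these intervals overlap.

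Most gaps that held a region held just 1 (839 gaps). There were 2 in 118 gaps, 3 in 16, 4 in 4 and 5 in 2, so 310 regions (26.9%) shared a gap with another. The 5 regions between CHRD, the BMP antagonist chordin, and EPHB3, an ephrin receptor, held 61.7 to 112.2 tags over a gap of 171 kb (chr3:184390740-184561784). The 5 between KRT17 and EIF1 held 70.3 to 263.4 tags over 64.3 kb (chr17:41624576-41688884), and all 5 lay in the stretch from 23.5 to 42.6 kb beyond KRT17. Each of these 2 gaps includes a pair of regions less than 1 kb apart. The pairs lay at 77.84 and 78.79 kb beyond CHRD and at 23.50 and 24.24 kb beyond KRT17. With peaks within 1 kb merged, 1152 regions remained. The 4 between POLG, the mitochondrial DNA polymerase, and RHCG, an ammonium transporter, held 64.3 to 159.8 tags. The 4 between TNP1, a sperm nuclear protein, and TNS1, an actin-linked adhesion protein, held 57.3 to 75.5 tags, and the 4 between HAAO, an enzyme of tryptophan breakdown, and LOC107985876 held 58.3 to 63.8. In the TNP1 to TNS1 gap of 940 kb all 4 lay from 854 to 929 kb beyond TNP1, on the TNS1 side; the rule admits only the outer 100 kb at either end of so long a gap.

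**Figure D4:**
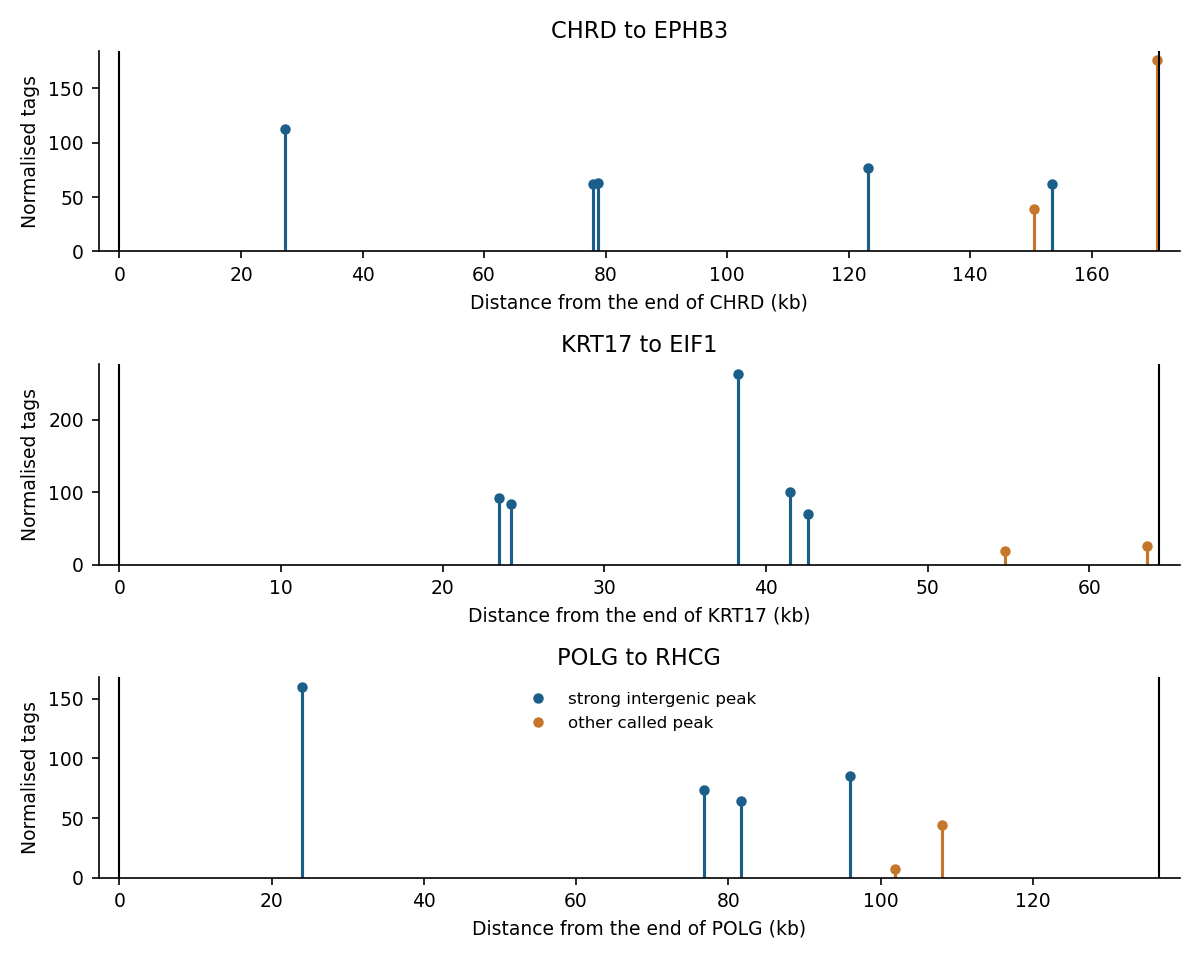
Called CTCF peaks in 3 gaps with many strong intergenic peaks, by distance in kb from the end of the left gene (vertical lines mark both genes) and normalised tags. Blue points are strong intergenic peaks and orange points other called peaks, among them a peak of 175.9 tags at EPHB3 itself, which lies within 1 kb of the gene.

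Gaps bordered by keratin genes, the genes of epithelial intermediate filaments, had the highest density of regions among the gene lists. Regions were present in 7 of 38 such gaps (18.4%, 7.74 to 34.3), 14 regions in all, at 23.3 per Mb (12.8 to 39.2) against 1.79 (1.69 to 1.90) over all gaps. These gaps were short, with a median of 19.8 kb, and all gaps of 10 to 20 and 20 to 50 kb had 4.46 (3.29 to 5.91) and 3.69 (3.25 to 4.16) regions per Mb. Of the called peaks in the keratin gaps 45.2% were strong (27.3 to 64.0), against 15.5% and 14.2% in all gaps of those lengths. Without the KRT17 to EIF1 gap, 9 regions in 6 of 37 gaps remained, at 16.5 per Mb (7.54 to 31.3). Local background moved with this result: its median in the 14 regions was 4.99, and 7 of them were over 3 times the autosomal median, against 103 of 1154 over all regions. The part of background or of DNA copies in the result was not tested.

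The keratin regions, listed after their values were seen, fell in the clusters on chromosomes 12 and 17. On chromosome 17 a region of 109.1 tags lay between KRT19 and KRT9 with the low focus ratio of 0.688, and the other 5 were those between KRT17 and EIF1. On chromosome 12 the highest was 128.1 tags (113 to 145) between KRT80 and KRT7, at the lncRNA genes LINC00592 and LINC02874, the latter shown above without the motif. Between KRT18 and EIF4B a region held 116.1 tags (101 to 132), and between KRT83 and KRT85 a region held 100.2 (86.3 to 115). The gap between KRT78 and KRT8 held 3, with 60.4, 71.3 and 74.4 tags, and that between SMIM41 and KRT80 held 2, with 59.3 and 61.4.

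Gaps beside developmental regulators held regions more often than the average gap. For developmental transcription factors the count was 61 of 302 gaps (20.2%, 15.8 to 25.2), and for secreted signalling ligands 27 of 129 (20.9%, 14.3 to 29.0). Their gaps were longer, with medians of 114 and 72.3 kb against 43.9 kb over all gaps. Per Mb the rates were 2.22 (1.74 to 2.79) and 2.95 (2.06 to 4.10). The rate of all gaps, 1.79, lies inside the interval for the transcription factors and below that for the ligands. Of all gaps of 50 to 100 kb, 14.5% (12.9 to 16.1) held a region, at 2.81 per Mb (2.51 to 3.12). In gaps of 100 to 200 kb the values were 19.0% (16.8 to 21.3) and 1.85 per Mb (1.64 to 2.08). The intervals of both lists overlap those of all gaps of like length. The share of called peaks that were strong was 12.3% (9.79 to 15.3) for the transcription factors and 16.1% (11.4 to 21.6) for the ligands. Over all gaps it was 10.4% (9.88 to 11.0), inside the first interval and below the second. In all gaps of 50 to 100 kb it was 13.1% (11.8 to 14.5), and in those of 100 to 200 kb 10.5% (9.39 to 11.8). The intervals of both lists overlap these.
The highest ligand region held 148.1 tags (132 to 167) between PRKAG3, a subunit of AMP-activated kinase, and WNT6, 11.9 kb from WNT6. Among other ligand regions, named after their values were seen, 1 of 124.4 tags (109 to 141) lay 15.2 kb from FGF1, a fibroblast growth factor, and 1 of 82.8 (70.4 to 96.7) lay 29.4 kb from WNT7B.

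Regions were sparse beside other large gene families. Olfactory receptor genes bordered 341 gaps, of which 9 held a region (2.64%, 1.21 to 4.95), at 0.812 per Mb (0.389 to 1.49). Numbered zinc finger genes bordered 441 gaps, of which 23 held one (5.22%, 3.33 to 7.72), at 1.08 per Mb (0.704 to 1.58). The median gap lengths of 31.1 and 32.4 kb were shorter than over all gaps, but the rates per Mb were also under 1.79, with intervals below it. Beside olfactory receptor genes weaker peaks were also sparse, at 10.4 per Mb (8.67 to 12.4) against 15.4 over all gaps. Of the called peaks there 7.25% were strong (3.53 to 12.9), an interval that includes the 10.4% of all gaps. Beside zinc finger genes weaker peaks ran at 14.6 per Mb (13.1 to 16.2), and 6.86% of called peaks were strong (4.53 to 9.89). In all gaps of 20 to 50 kb, a range that holds both median lengths, 14.2% of called peaks were strong (12.6 to 15.8). That value lies above the intervals of both families, and its own interval overlaps only that of the olfactory receptor genes. The strongest region beside a zinc finger gene, of 161.6 tags (144 to 180), lay 15.1 kb from ZNF131. Solute carrier genes were close to the average, with 37 of 406 gaps (9.11%). Cytosolic ribosomal protein genes had 6 of 50 gaps (interval 4.53 to 24.3%), led by a region of 108.0 tags (93.6 to 123) 5.73 kb from RPL29.

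Genes of the CTCF and cohesin machinery, of the pigment lineage and of mitosis bordered few gaps with a region. Of 19 gaps beside CTCF and cohesin genes 3 held 4 regions: 2 of 106.5 and 85.4 tags between GRID1 and WAPL, the cohesin release factor, 1 of 73.4 between WAPL and OPN4, and 1 of 87.2 between MAU2, a cohesin loader subunit, and GATAD2A. Melanocyte genes had 2 of 27 gaps, with 81.7 tags between TMEM135 and RAB38, which acts in pigment granule transport, and 64.0 tags between TRPM1 and KLF13. The region of 81.7 tags lay 24.1 kb from TMEM135 and 451 kb from RAB38, and that of 64.0 tags 54.5 kb from TRPM1. Melanoma and growth genes had 1 of 25, a region of 92.9 tags (79.5 to 107) between EGFR, the epidermal growth factor receptor, and LANCL2 on a local background of 6.59. Mitotic genes had 1 of 33, with 60.9 tags (50.4 to 73.0) between FTH1 and INCENP, a subunit of the chromosomal passenger complex. At these numbers none of the 4 shares could be told from the 9.69% of all gaps.

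Genes whose domain boundaries are broken in inherited disorders bordered 37 gaps, of which 5 held 6 regions (13.5%, 4.54 to 28.8), with a median gap length of 300 kb. The share was 9.69% over all gaps and 13.7% (11.5 to 16.1) in all gaps of 200 to 500 kb, so the listed genes did not stand apart. The strongest of the 6 regions was again the one by WNT6. The other 5 held 105.2 and 54.9 tags near MEF2C, 90.1 near BCL11A, 77.6 near GLI3 and 56.7 in the gap beside SOX9, which are all transcription factors of development. The region of 56.7 tags lay 431 kb from SOX9 and 88.8 kb from SLC39A11, the gene at the other end of the gap. The genes listed as classical insulator loci, such as globin and some imprinted genes, bordered 27 gaps and none held a region. That allows a share of up to 12.8%, so it could not be told from the 9.69% of all gaps. The gaps beside the listed genes held 23 weaker peaks. The list did not hold every imprinted gene, so its zero does not extend to imprinted genes in general. A region lay between CDKN1C, an imprinted gene outside the list, and SLC67A1.

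Chromosomes differed in the number of strong intergenic peaks. Chromosome 4 had 11 regions, 1.98% of its peaks in the distance window (0.992 to 3.51) and 0.270 per Mb (0.135 to 0.483), the lowest of the autosomes by both measures. Chromosome 17 had 77, or 17.5% (14.0 to 21.3) and 4.11 per Mb (3.25 to 5.14), the highest by both. Outside the window 17.7% of the peaks on chromosome 17 were strong (15.7 to 19.9), so its high share was not limited to intergenic peaks. Over all autosomes 10.4% of the window's peaks were strong. Weaker peaks differed less, with 13.4 per Mb on chromosome 4 (12.3 to 14.5) and 19.5 on chromosome 17 (17.5 to 21.6). The low share on chromosome 4 was not limited to intergenic peaks: elsewhere on it 4.38% of peaks were strong (3.42 to 5.51), against 10.3% on all autosomes. Chromosomes 18 and 21 also had low shares in the window, 5.24% (2.90 to 8.64) and 6.30%.
On chromosome 19 the window share was 12.3% (8.93 to 16.5), while 22.7% of its other peaks were strong (20.4 to 25.3). The median local background of weaker peaks was 1.28 on chromosome 4 and 1.49 on chromosome 17, and the median gap between genes was 67.3 and 28.7 kb. Their part in the difference was not tested, and DNA copy number was not analysed.

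**Figure D5:**
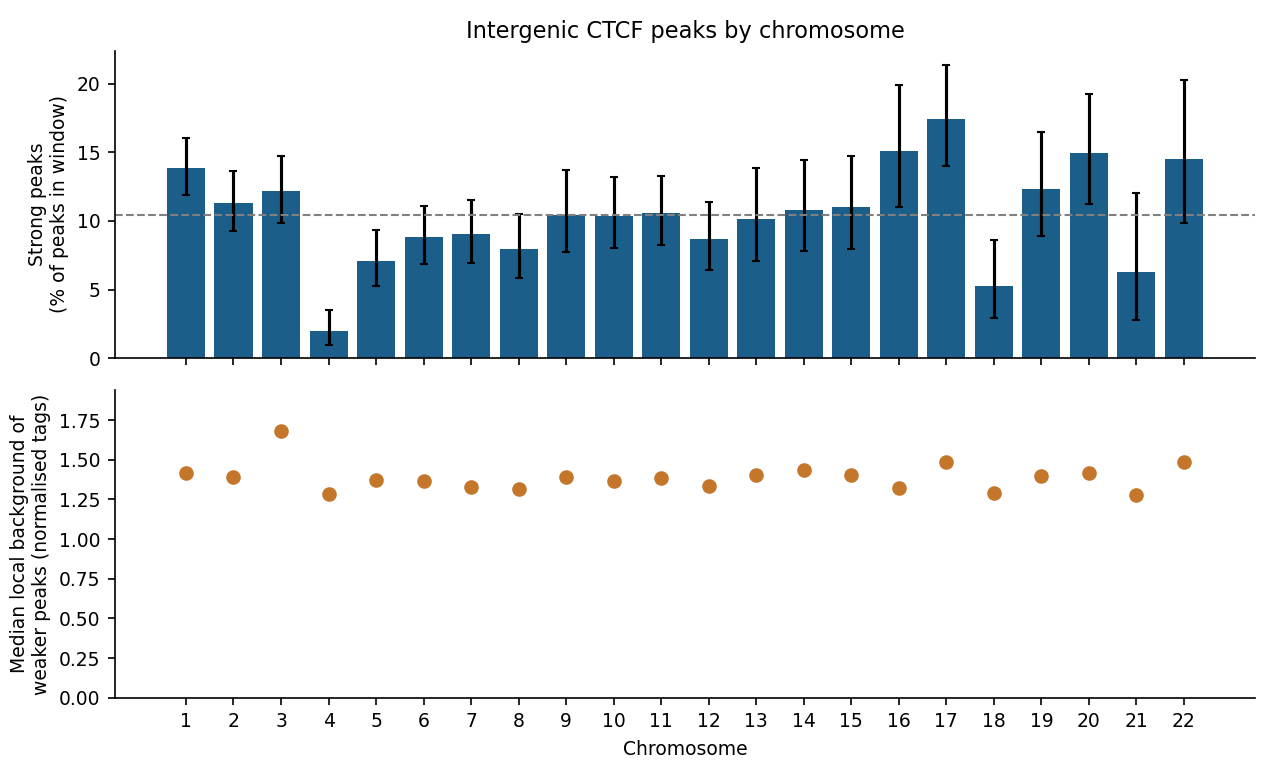
Top, strong peaks as a percent of peaks 5 to 100 kb from genes on each autosome with Clopper-Pearson intervals (dashed line, all autosomes); bottom, median local background of the weaker peaks there in normalised tags. Chromosome 4 is lowest at 1.98% and chromosome 17 highest at 17.5%, while background is 1.28 and 1.49.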

How the data were processed

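The submitters' processing notes name Bowtie2, HOMER and hg38 (versions not stated). According to the list itself, per the file headers, findPeaks ran in factor style on this library alone, counting a position once, at a false discovery rate of 0.001 and 4-fold or more over the surrounding 10 kb. Peaks were 349 bp wide. The deposited tag signal is scaled to 10000000 tags. The deposited focus ratio is a fraction, the deposited score is the authors' caller's own, and the deposited fold over the local region and the clonal fold are each a ratio. The authors' deposited p-value was not used.

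Genes came from RefSeq (GRCh38.p14, the chromosomes of hg38), with 19126 protein-coding and 37630 other autosomal genes. Gene strand and sequence came from RefSeq gene-start windows, which lack some genes. Gaps of at least 10 kb between protein-coding genes were eligible. Shares have Clopper-Pearson and tags and rates Poisson 95% intervals. The selection of regions, motif learning and motif search were checked on simulated data. Members, gene lists and comparisons were chosen with earlier results of these data known. Named were the 20 regions of highest score, those at the score threshold, the 5 fullest gaps, the highest region per list, the extremes of background and focus, and the 10 highest at noncoding genes. Of the 4 gaps tied at 4 regions, the shortest was left out. Others are named as chosen after seeing values. Alternatives varied the threshold, window, gene set, merging, background, neighbour and gap limits and, added after seeing the data, the motif. The other 3 samples were not analysed here. The tools were matplotlib 3.10.9, scipy 1.17.1, pandas 2.3.3 and numpy 2.4.6 under Python 3.11.15.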

Additional observations from a re-analysis of the deposited data

Results flagged for a closer look

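Chromosome X was outside the rule, and 6 of its peaks met every other part of it. They made up 1.58% of its called peaks in the same distance window (Clopper-Pearson interval 0.582 to 3.40), or 0.132 per Mb (0.0485 to 0.288). On the autosomes the share was 10.4% and the rate 1.79 per Mb (1.69 to 1.90). The 6 peaks held 56.0 to 190.0 normalised tags. The median local background of the weaker peaks was 0.716 on X and 1.39 on the autosomes, and its part in the difference was not tested. There is no control sample, and a peak in this list is above the caller's own floor by definition.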

How the results depend on the processing

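Of 57 alternative values, 38 stayed within counting error of the reported one, or within 1.5 times for a count, and 19 moved. All were counts, medians or shares for the regions or the gaps, which have no direction to reverse. The comparisons with weaker peaks, gene lists and chromosomes were not rerun. A score threshold 20% lower gave 2005 regions, a median of 57.8 tags and 15.7% of gaps holding one, and a threshold 25% higher gave 529, 84.8 and 4.87%. A window of 10 to 50 kb gave 700 regions and 7.85% of gaps, and one of 2 to 200 kb gave 10.3% of gaps and 32.6% of regions at noncoding genes. With all annotated genes defining gene space there were 668 regions, 3.33% of gaps and, by construction, 0.0% at noncoding genes. Counting only regions inside noncoding genes gave 28.1%, and 5 kb around their ends gave 47.1%. Neighbours within 10 and 50 kb were found for 46.3% and 93.2%, and gaps of at least 50 kb held a region in 14.8%. The looser motif, chosen after seeing the data, was in 57.4%. These shifts follow from the altered limits themselves. No paired analysis was possible because 1 peak list of 1 sample was analysed. With 1 library and no control, intervals cover counting only, and a region without a call has no level.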
